A study of Danio rerio with 6 samples.

Results

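The genes described here are myeloid fate transcription factors outside the C/EBP family, measured in the kidney marrow of adult zebrafish. They were taken as the rows of a TPM table whose symbol equals one of 9 listed names, and 7 of the 9 were read in this way: spi1a, spi1b, irf8, klf4, mafbb, gfi1ab and runx3. maf and etv6 are not analysed here. The 7 stand among 15292 genes in the table, and all 7 were among the 10750 genes with a mean of at least 1 TPM that entered the test. TPM is transcript abundance per unit of gene length, scaled to the same total in every library. The libraries came from 6 siblings, 3 homozygous for a grna mutation (grna-/-, the mutants) and 3 grna+/+ (the controls), with 1 fish per library and no treatment named for either group. grna encodes a zebrafish granulin, a secreted and lysosomal protein, and the labels do not say how the gene was altered, nor the age, sex or strain of a fish. Whole marrow was dispersed and strained and no cell type was sorted, so for every gene below fewer cells of a type and less RNA per cell cannot be told apart.

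In vertebrate marrow, myeloid cells arise from progenitors in which a few transcription factors compete. PU.1, encoded in zebrafish by spi1b and its paralog spi1a, opens the myeloid program and opposes the erythroid factor GATA1. IRF8 pairs with PU.1 on shared DNA elements and, in zebrafish embryos and in mammals, favours macrophages over neutrophils. GFI1 is a repressor that favours the granulocyte side in mammals. KLF4 acts later, in monocytes of mammals, and RUNX3 acts in lymphoid and myeloid cells of mammals. The comparison of grna-/- with grna+/+ asks how loss of this granulin alters marrow gene expression, with myeloid differentiation named in the study's title.

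Between 11080875 and 14075134 reads were counted per library. The targeted gene grna lay between 134.7 and 151 TPM in controls and between 65.2 and 74.0 TPM in mutants, in the direction of the labels. Markers of marrow cells were abundant: 7 erythroid markers summed to 21204 to 93247 TPM and 7 neutrophil markers to 24761 to 54053 TPM over the 6 libraries. The globin genes hbaa1 and ba1l made most of the erythroid sum in every library, and lyz and lect2l most of the neutrophil sum. Markers of kidney tubule were present as well, with 10 of them summing to 1182 to 2964 TPM. One library, grna+/+ replicate 2, stood apart for several of the factors. It had the lowest erythroid sum, 21204 TPM, and the highest sum over 8 genes of stress and handling, 1701 TPM against 785 to 1039 TPM in the other 5 libraries. hspa5 made the largest part of that sum, at 1066 TPM. atf3, jun and junba were also highest in that library, but egr1 was at its lowest there (51.6 TPM). fosab, fosb and hsp70l were not highest there.

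No factor of the 7 passed the test between genotypes (limma on log2(TPM + 1), Benjamini-Hochberg adjusted p below 0.05 over all 10750 genes), where 1.15% of all genes passed. At an unadjusted p below 0.05 there was 1 of 7, irf8, where 17.6% of all genes reached that mark. The log2 fold change, grna-/- minus grna+/+, was above 0 for 3 factors (irf8, runx3 and gfi1ab) and below 0 for 4 (spi1a, spi1b, klf4 and mafbb). Its median over the 7 was -0.12, beside 0.07 over all tested genes. A p that misses the threshold with 3 fish a group does not show that a factor was equal in both genotypes, so the interval of each difference is given with its values.

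**Figure D1:**
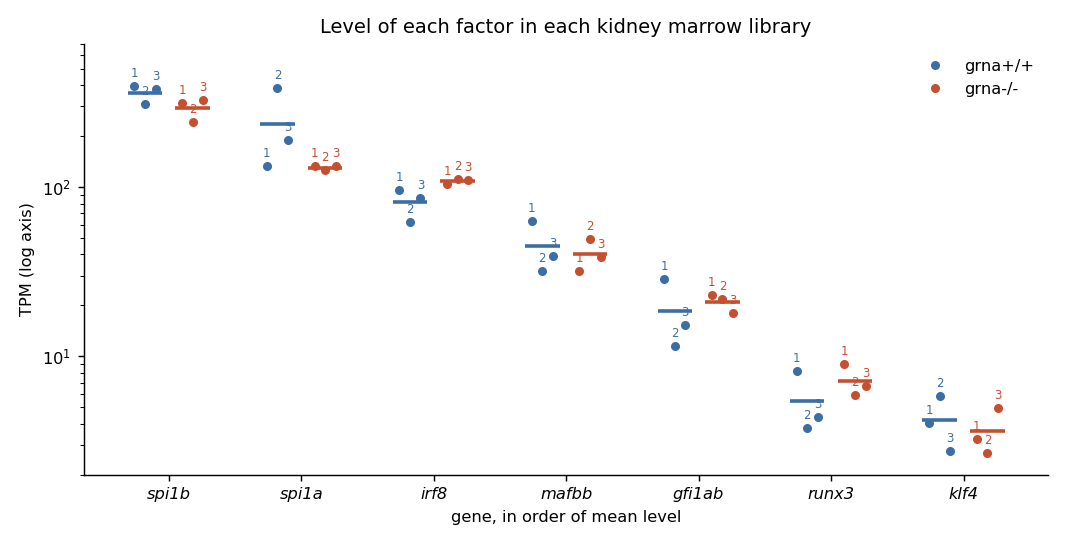
TPM (log axis) of each factor in each library; dots are single fish, numbered by replicate, blue for grna+/+ and red for grna-/-, and bars are the mean of 3 fish. The factors run from spi1b, at a mean of 328 TPM over the 6 libraries, down to klf4, at 3.93 TPM, and only irf8 has its 2 colours fully apart.

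The factors covered a wide range of abundance. spi1b averaged 328 TPM over the 6 libraries, above 96.7% of all tested genes, and spi1a 183 TPM. irf8 followed at 95.3 TPM, mafbb at 42.4, gfi1ab at 19.7, runx3 at 6.31 and klf4 at 3.93 TPM. In 4 of the 6 neighbouring pairs in this order, from spi1a down to runx3, the order held in all 6 libraries. The exceptions were spi1b over spi1a and runx3 over klf4, each ordered this way in 5 of 6 libraries, and in both the library that went the other way was grna+/+ replicate 2. Between 6049 and 9109 reads stood behind spi1b in a library, but only 31 to 59 behind klf4.

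spi1b is the main zebrafish PU.1 gene. In grna+/+ replicates 1 to 3 its level was 395, 311 and 378 TPM, and grna-/- replicates 1 to 3 held 314, 244 and 325 TPM. The genotypes overlapped, because grna+/+ replicate 2 lay below grna-/- replicates 1 and 3. Between fish of the same replicate number the grna-/- fish was the lower in 3 of 3 pairs, and the adjusted p with the number as a block in limma was 0.21. The number is that of the sample title, and the share of all genes with such a count was not computed. Means were 361 ± 44.8 and 294 ± 44.2 TPM (grna+/+ first, as in every pair of means here; ± SD of 3 fish), and limma put the log2 fold change at -0.30 (SE 0.156, 95% confidence interval -0.66 to 0.06, adjusted p = 0.349). The interval runs from 0.634 to 1.04 of the grna+/+ level and includes no difference. Without grna-/- replicate 2, the lowest library, the log2 fold change was -0.17 (limma adjusted p = 0.603). Without grna+/+ replicate 2 it was -0.40 (adjusted p = 0.339).

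spi1a is the other PU.1 gene of zebrafish. The control fish held 132, 386 and 189 TPM of it, and the mutant fish 133, 126 and 132 TPM. Its 3 grna-/- values lay close together and coincided with grna+/+ replicate 1, while grna+/+ replicate 2 was 3.07 times the lowest library. Means were 236 ± 133 and 131 ± 4.30 TPM, and the log2 fold change was estimated at -0.70 (SE 0.336, 95% confidence interval -1.47 to 0.07, limma adjusted p = 0.319). Without grna+/+ replicate 2 the log2 fold change was -0.27 (adjusted p = 0.559), and without grna+/+ replicate 1 it was -1.04 (adjusted p = 0.105). The same library was the highest for atf3, a stress-induced transcription factor on the handling list, at 181 TPM against 10.96 to 56.3 TPM elsewhere. The part of stress or handling in the spi1a level was not tested.

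Seen as a pair, spi1a made up 25.1%, 55.4% and 33.3% of the summed TPM of both PU.1 genes in grna+/+ and 29.8%, 34.0% and 29.0% in grna-/-. Only in grna+/+ replicate 2 was spi1a the more abundant of them. The sum itself, a quantity picked after the values were seen, was 527, 696 and 567 TPM in the controls and 448, 369 and 457 TPM in the mutants. Every grna+/+ sum lay above every grna-/- sum, where 10.6% of single genes were separated in this direction. Means were 597 ± 88.2 and 425 ± 48.4 TPM, with an exact permutation p (both sides) of 0.1, the smallest that 3 against 3 can give. On the log2 scale the sum differed by -0.49, and by -0.37 without grna+/+ replicate 2. Without grna-/- replicate 2 it differed by -0.39, with an exact permutation p of 0.2.

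irf8 encodes the interferon regulatory factor that partners PU.1. Controls held 96.1, 62.3 and 86.7 TPM, and mutants 104.8, 112 and 110.4 TPM. It was the only factor whose genotypes did not overlap, with grna-/- above, and 14% of all tested genes were separated in that direction. Means were 81.7 ± 17.4 and 109 ± 3.71 TPM, which is 1.33-fold higher in grna-/-. The log2 fold change by limma was 0.43 (SE 0.178, 95% confidence interval 0.02 to 0.84, adjusted p = 0.266), and the limma p before adjustment was 0.0404. The exact permutation p was 0.1, again the smallest possible. The lowest library, grna+/+ replicate 2, carried part of the difference, and without it the log2 fold change was 0.25 (adjusted p = 0.469). IRF8 is active in macrophages and B cells. The sum of 8 macrophage markers ranged over 2375 to 2771 TPM in controls and 2624 to 3495 TPM in mutants, and that of 5 B cell markers over 130 to 260 and 156 to 237 TPM. In every library cd74a made the largest part of the macrophage sum, and cd79a that of the B cell sum. Both sums overlapped between genotypes. Of the 8 macrophage markers, 5 had a log2 fold change above 0. The one with the smallest p, ctss2.1, had the lower mean in grna-/- (417 ± 8.71 and 278 ± 32.8 TPM, limma adjusted p = 0.07). The part of these sums in the irf8 level was not tested.

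**Figure D2:**
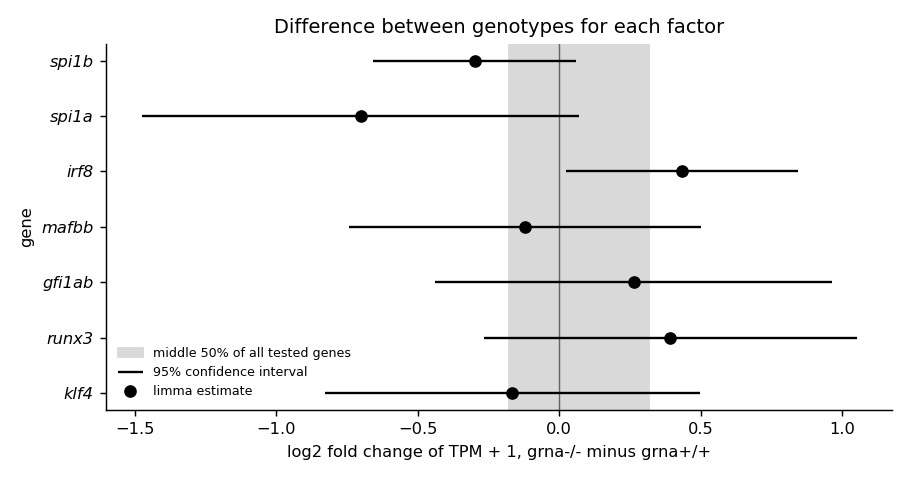
Estimated log2 fold change of TPM + 1, grna-/- minus grna+/+, for each factor (dot) with its 95% confidence interval from limma (line); the grey band spans the middle 50% of all tested genes. The interval of irf8, 0.02 to 0.84, is the only one that leaves out 0, and that interval is not adjusted for the number of genes tested.

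gfi1ab is a zebrafish ortholog of the repressor gene GFI1. It measured 28.7, 11.5 and 15.3 TPM in the controls against 23.0, 21.8 and 18.1 TPM in the mutants. The grna+/+ fish spanned the whole range, with the highest and the lowest library, and the grna-/- fish lay between them. Means were 18.5 ± 9.06 and 20.9 ± 2.57 TPM, and the log2 fold change was estimated at 0.26 (SE 0.305, 95% confidence interval -0.44 to 0.97, limma adjusted p = 0.669). Without grna+/+ replicate 2 the log2 fold change was -0.0099 and without grna+/+ replicate 1 it was 0.62, so single control fish set both its sign and its size. The neutrophil marker sum ranged over 44181 to 54053 TPM in controls and 24761 to 46772 TPM in mutants, and its part in the gfi1ab level was not tested.

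For runx3, controls held 8.16, 3.75 and 4.37 TPM and mutants 8.97, 5.88 and 6.71 TPM. grna+/+ replicate 1 lay among the grna-/- fish and the other 2 controls below all of them. Means were 5.43 ± 2.39 and 7.19 ± 1.60 TPM, and the log2 fold change was estimated at 0.39 (SE 0.286, 95% confidence interval -0.27 to 1.05, limma adjusted p = 0.482). Without grna+/+ replicate 2 the estimate was 0.21, without grna-/- replicate 1 it was 0.24, and without grna+/+ replicate 1 it was 0.68. The grna-/- fish was the higher in 3 of 3 same-numbered pairs, a count whose share over all genes was not computed. For irf8, whose genotypes did not overlap, every pairing gives that count. With the block in limma the adjusted p was 0.302 for runx3 and 0.211 for irf8. RUNX3 is known from T and cytotoxic cells of mammals, and the sum of 13 T and cytotoxic markers overlapped between genotypes (147 to 171 TPM in controls, 161 to 195 TPM in mutants). One of the 13, cd3eap, is a subunit of RNA polymerase I by its mammalian ortholog and marks no T cell. The T cell markers cd4-1 and lck were measured at low levels, at most 6.22 and 9.05 TPM in any library.

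mafbb encodes a large MAF transcription factor of the bZIP class. Its level was 63.1, 31.9 and 39.3 TPM in controls and 32.0, 49.5 and 38.5 TPM in mutants. The fish were interleaved, with grna+/+ replicate 1 highest and grna+/+ replicate 2 lowest. Means were 44.7 ± 16.3 and 40.0 ± 8.86 TPM, and the log2 fold change was estimated at -0.12 (SE 0.27, 95% confidence interval -0.74 to 0.50, limma adjusted p = 0.836), which turned positive without grna+/+ replicate 1 (0.15) or without grna-/- replicate 1 (0.03). Markers of podocytes, a cell type of the kidney filter, moved in these libraries: the sum of 7 ranged over 74.7 to 82.1 TPM in controls and 37.6 to 44.5 TPM in mutants, with none at 0. Among them podxl, the podocyte surface sialomucin gene, fell from 25.7 ± 2.26 to 12.9 ± 1.85 TPM (limma adjusted p = 0.0491), a call lost when any 1 fish other than grna+/+ replicate 1 was left out. The part of podocytes in the mafbb level was not tested.

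klf4 encodes a Krüppel-like factor of monocytes and of epithelia. The controls showed 4.06, 5.87 and 2.78 TPM and the mutants 3.25, 2.71 and 4.93 TPM. The genotypes overlapped throughout. Means were 4.24 ± 1.55 and 3.63 ± 1.16 TPM, and the log2 fold change was estimated at -0.17 (SE 0.289, 95% confidence interval -0.83 to 0.50, limma adjusted p = 0.785), and 0.05 without grna+/+ replicate 2. The coefficient of variation between fish was 36.7% in controls and 32.0% in mutants, and counting alone gave 15.8% on average. For the highest library the exact Poisson 95% interval ran from 4.47 to 7.58 TPM, and for the lowest from 1.86 to 3.80 TPM. These intervals cover counting error only. The sum of 10 kidney tubule markers ranged over 1182 to 1696 TPM in controls and 1546 to 2964 TPM in mutants. That of 10 endothelial markers ranged over 142 to 223 and 90.0 to 153 TPM. Both sums overlapped between genotypes. Single endothelial markers leaned lower in grna-/-: 1 of 10 had a log2 fold change above 0, and the median was -0.37. Among them 1 fell, beside 0.493% of all genes. Of the 10 tubule markers 6 had a log2 fold change above 0, and none was called. The part of these sums in the klf4 level was not tested.

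**Figure D3:**
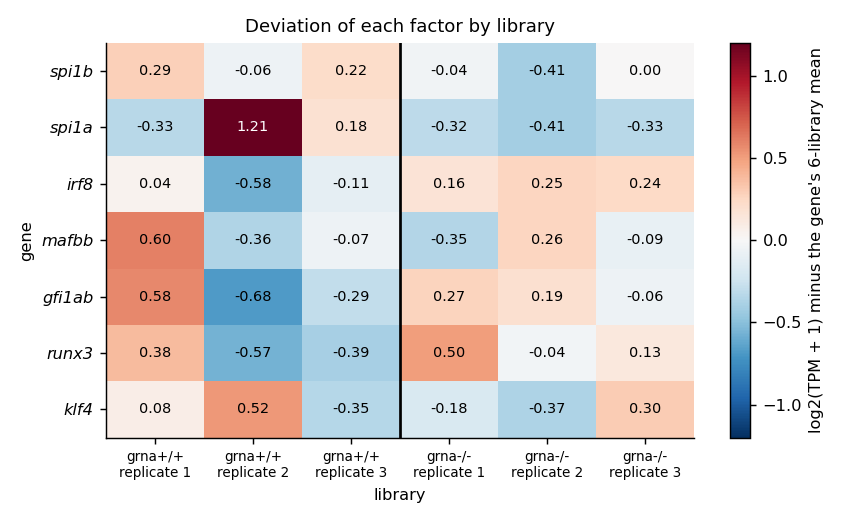
Each factor's log2(TPM + 1) in each library minus its mean over the 6 libraries, with the value printed in each cell (red above, blue below the mean). In the column of grna+/+ replicate 2, spi1a (1.21) and klf4 (0.52) are above their mean and the other 5 factors below, down to -0.68 for gfi1ab.

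Most of the extreme values lay in grna+/+ replicates 1 and 2 and in grna-/- replicate 2. grna+/+ replicate 2 was the lowest library for irf8, mafbb, gfi1ab and runx3 and the highest for spi1a and klf4. grna+/+ replicate 1 was the highest for spi1b, mafbb and gfi1ab, and lay above the mean for 6 of the 7 factors. grna-/- replicate 2 was the lowest for spi1a, spi1b and klf4 and the highest for irf8. In grna-/- replicate 2 the distance to the next library was small for spi1a (126 against 132 TPM), klf4 (2.71 against 2.78 TPM) and irf8 (112 against 110.4 TPM). It was larger for spi1b (244 against 311 TPM). The mafbb low in grna+/+ replicate 2 was also close to the next library (31.9 against 32.0 TPM).

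Ratios between factors within a library do not move with the scaling of that library. Of the 8 ratios planned, 7 could be formed, since 1 needed maf, and p-values were adjusted over the 7. irf8 stood at 0.243, 0.201 and 0.229 of the spi1b level in grna+/+ and at 0.333, 0.459 and 0.340 in grna-/-. Every grna-/- ratio was above every grna+/+ ratio, with a difference of 0.73 on the log2 scale (SE 0.169) and an exact permutation p of 0.1, or 0.35 adjusted over the 7 ratios. When any 1 library was left out this difference stayed between 0.58 and 0.81. Because spi1b was lower in grna-/- on average, 37.2% of all tested genes had a ratio to spi1b that separated the genotypes in the same way, so the separation is not particular to irf8.

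The ratio of runx3 to spi1b was separated too, but by a margin of almost nothing: it was 0.0207, 0.0121 and 0.0116 in grna+/+ and 0.0285, 0.0241 and 0.0207 in grna-/-. Its difference was 0.69 on the log2 scale (SE 0.251, exact permutation p = 0.1, adjusted 0.35). The other 5 ratios overlapped. gfi1ab to spi1b differed by 0.56 (SE 0.346, exact permutation p = 0.2, adjusted 0.467) and mafbb to spi1b by 0.18 (SE 0.361). spi1b was 2.99, 0.805 and 2.0 times spi1a in grna+/+ and 2.35, 1.94 and 2.45 times in grna-/-, a log2 difference of 0.40 (SE 0.567) that was -0.13 without grna+/+ replicate 2. irf8 to gfi1ab, which sets a macrophage factor against a granulocyte factor, was 3.35, 5.43 and 5.68 in grna+/+ and 4.56, 5.13 and 6.11 in grna-/-, a difference of 0.17 (SE 0.256, exact permutation p = 0.7, adjusted 0.8). klf4 to gfi1ab differed by -0.43 (SE 0.586), and by 0.062 without grna+/+ replicate 2.

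**Figure D4:**
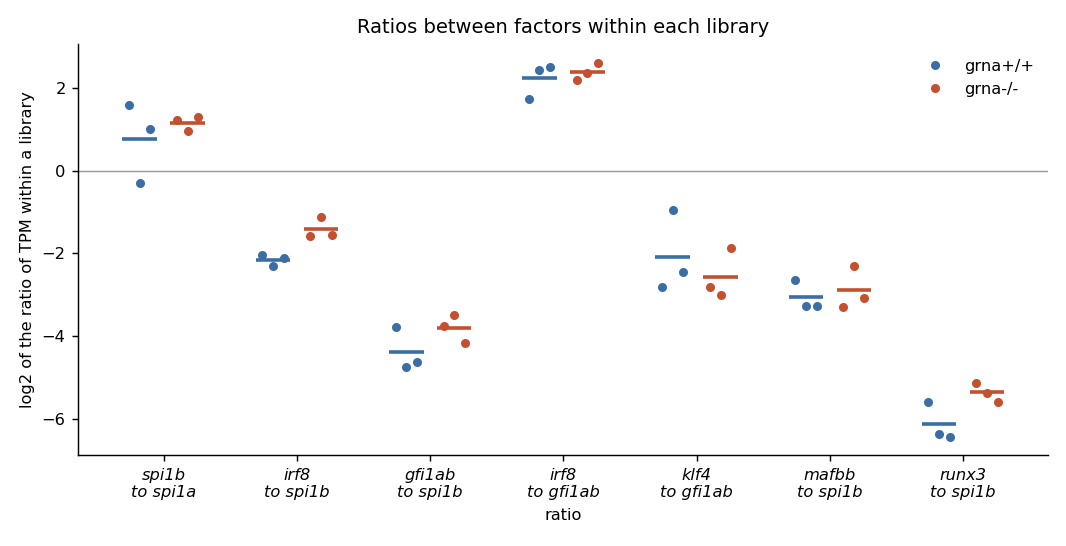
Log2 of the ratio of TPM of 2 factors within a library (no pseudocount), for each fish (dots; blue grna+/+, red grna-/-) with the mean of 3 (bars). The ratio of irf8 to spi1b is higher in all 3 grna-/- fish, and in the ratio of spi1b to spi1a a single grna+/+ fish lies below 0.

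By the shape of their values over the 6 libraries, some genes ran very close to a factor. Likeness was measured as the root mean square difference of log2(TPM + 1), each gene centred on its own mean, over 7705 named genes with a mean of at least 5 TPM, and with 6 libraries and that many genes close matches must occur. Nearest to spi1a were serp1 (0.0517) and dnajb9b (0.0557), both genes of the endoplasmic reticulum, and both shared its high value in grna+/+ replicate 2. Nearest to irf8 were tfdp1a (0.0176), a partner of E2F factors, and parn (0.0336), a poly(A) ribonuclease. Nearest to spi1b were med11 (0.0394), a Mediator subunit, and pofut2 (0.0497). For gfi1ab they were eif2ak2 (0.0621) and ehmt1b (0.0956), and for runx3 ip6k2a (0.0510) and rufy3 (0.0600). For mafbb they were LOC794656 (0.0619) and klf15 (0.133), and for klf4 n6amt2 (0.0840) and malt2 (0.0971).

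Among close relatives of the factors in the KLF, IRF, MAF, GFI1, RUNX and ETS families, 41 were tested, none rose and 1 fell, beside 0.66% and 0.493% of all genes. The median log2 fold change of the relatives was 0.13. The one that fell was ets1, an ETS factor of lymphoid and endothelial cells in mammals, from 136 ± 25 to 61.2 ± 11.4 TPM with a limma log2 fold change of -1.14 (SE 0.199, adjusted p = 0.0457). In 10 of 16 alternatives, among them leaving out grna+/+ replicate 2 or 3 or any grna-/- fish, it no longer passed. Over all 16 its log2 fold change stayed between -1.28 and -0.97, with adjusted p between 0.00197 and 0.16. The next smallest p-values belonged to klf13 (55.5 ± 12.6 and 92.3 ± 11.3 TPM, adjusted p = 0.123), the small MAF gene mafgb (19.3 ± 1.24 and 12.6 ± 1.05 TPM, adjusted p = 0.141) and klf11a (9.53 ± 5.48 and 24.2 ± 4.74 TPM, adjusted p = 0.172), whose log2 fold change of 1.43 was 0.87 without grna+/+ replicate 2. By family, 6 of 9 KLF, 7 of 9 IRF, 1 of 5 MAF and 7 of 15 ETS relatives had a log2 fold change above 0. runx1, the RUNX factor of blood stem cells, averaged 15.3 ± 4.31 and 18.2 ± 4.29 TPM, and its partner cbfb 70.2 ± 3.80 and 59.7 ± 8.61 TPM. Neither passed.

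None of 17 tested co-factors, the chromatin and repressor partners known in mammals for GFI1, ETV6, RUNX factors and PU.1, was called (median log2 fold change -0.04). sin3aa, a corepressor scaffold, averaged 12 ± 2.06 and 18.0 ± 2.84 TPM (limma adjusted p = 0.226). The histone demethylase gene kdm1a, a partner of GFI1, averaged 75.4 ± 9.01 and 76.8 ± 2.36 TPM. rcor3 and ncor1 had adjusted p of 0.442 and 0.45.

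Genes that some of these factors bind or drive in monocytes and macrophages of mammals were taken as a monocyte list. A granulocyte list was set beside it, without such a basis for each gene. Its genes lyz, mpx, srgn, cpa5 and mmp9 are also among the neutrophil markers. Both lists were chosen with earlier results of these data known, so the counts of direction below are descriptions only. No gene of either list was called. Among 21 tested monocyte and macrophage targets 11 had a log2 fold change above 0, and the median was 0.01. The invariant chain genes cd74b (1088 ± 95.7 and 1445 ± 102 TPM, adjusted p = 0.131) and cd74a (1142 ± 227 and 1739 ± 438 TPM, adjusted p = 0.22) had the higher mean in grna-/-. csf1ra, the macrophage growth factor receptor and a classical PU.1 target, averaged 40.6 ± 7.31 and 36.5 ± 3.34 TPM. Among 11 tested genes of the granulocyte list none had a log2 fold change above 0. The median was -0.61, beside 0.07 over all tested genes. The 3 with the smallest p there, illr4, adam8a and srgn, had limma adjusted p of 0.0515, 0.0567 and 0.0949, and passed with the replicate number as a block (0.0144, 0.0461 and 0.0487). csf3r, the granulocyte growth factor receptor, averaged 217 ± 13.3 and 175 ± 25.2 TPM (adjusted p = 0.292). The difference between the lists was not tested.

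On the erythroid side, among 13 tested factors listed as erythroid counterparts of PU.1, 1 rose and none fell, beside 0.66% and 0.493% of all genes. This list too was chosen with earlier results of these data known. A place on it does not show that a factor opposes PU.1. Of the 13, 11 had a log2 fold change above 0, and the median was 0.40, beside 0.07 over all tested genes. sox6, a factor of red cell maturation, rose from 2.07 ± 0.699 to 7.58 ± 1.25 TPM with a limma log2 fold change of 1.5 (SE 0.237, adjusted p = 0.0373), a call lost under 6 of 15 alternatives, 5 of which left out 1 library (all but grna+/+ replicate 1). klf1, the erythroid Krüppel-like factor, averaged 21.2 ± 6.19 and 39.3 ± 3.88 TPM (adjusted p = 0.117), lmo2 37.4 ± 11.5 and 61.9 ± 8.32 TPM (adjusted p = 0.17), and tal1 39.5 ± 2.34 and 52.3 ± 3.08 TPM (adjusted p = 0.218). gata1a, the direct antagonist of PU.1, averaged 32.9 ± 10.8 and 44.6 ± 4.33 TPM without passing (adjusted p = 0.349). The erythroid marker sum did not overlap between genotypes, with 21204 to 50553 TPM in controls and 80629 to 93247 TPM in mutants. With libraries rescaled by their median ratio to a common reference, log2 fold changes were -0.37 for spi1b, -0.77 for spi1a and 0.37 for irf8. Quantile normalization gave -0.17, -0.61 and 0.51 in the same order, and recovered reads in place of TPM gave -0.27, -0.67 and 0.47. Both PU.1 genes moved further below 0 with the median ratio and the other way with these alternatives. The direction of the shift thus depended on the scaling, and none of the 3 genes was called under any of them.

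**Figure D5:**
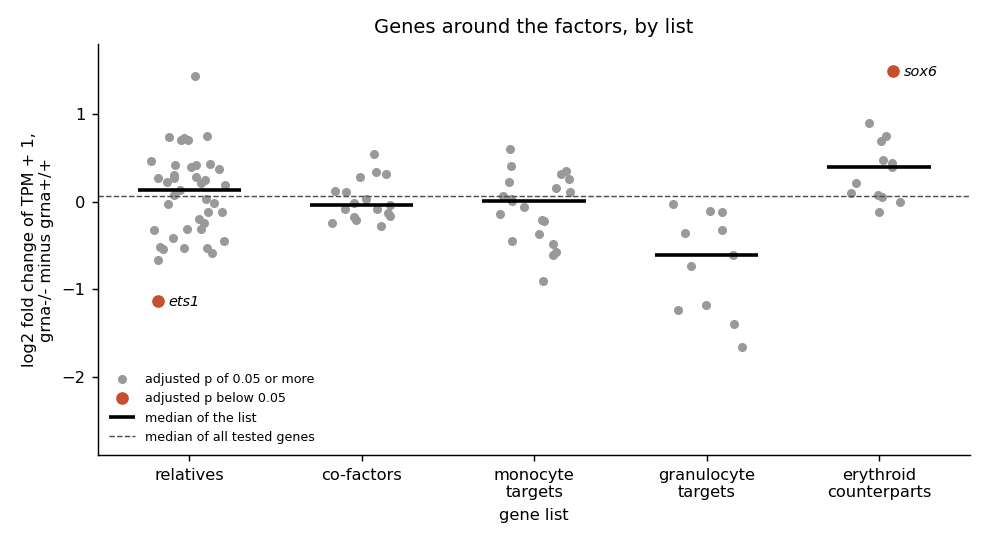
Log2 fold change of TPM + 1, grna-/- minus grna+/+, for each tested gene of the 5 lists around the factors (dots, spread sideways at random; red where the limma adjusted p was below 0.05), with the list median (bar) and the median of all tested genes, 0.07 (dashed line). All 11 genes of the granulocyte list (labelled granulocyte targets) lie below 0, and ets1 and sox6 are the called genes. The lists were chosen with earlier results of these data known.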

How the data were processed

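The authors deposited 1 table of TPM for 6 kidney marrow libraries, 3 per genotype. The builds GRCz10 and danRer10 and the tools DESeq2 1.26.0, Subread and featureCounts are named, without roles, per the submitters' processing notes. The tool that made the TPM was not given in the sources used here, nor was the use of strand in counting, although the kit keeps strand. A row named Total was read as the reads counted and left out of tests. Whole reads were recovered from the ratios of each gene's values: all 11875 genes above 0 in every library came out whole at a relative tolerance of 1e-09. The recovered reads of all genes, also those at 0 in some libraries, summed to 99.3% of Total. A factor common to a gene's 6 libraries cannot be seen this way, so reads given for a gene are a lower bound.

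limma 3.58.1 (R 4.3.3) was fitted on log2(TPM + 1) to 10750 genes with a mean of at least 1 TPM, with genotype alone and a variance trend, two-sided, Benjamini-Hochberg adjusted, threshold 0.05. "Rose" and "fell" mean called genes. The fold changes understate those of low genes. The script was tested on simulated data. Ratios used TPM + 1 on the log2 scale and exact permutation tests over fish. Alternatives were the pseudocount, filter, scaling, block, weights, variance prior, recovered reads and leaving out each fish.

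Members, lists and tests were chosen with earlier results of these data known. Named genes are the members, called genes of a list, its 3 smallest p-values beyond those (some of these genes are not reported here), and the 2 nearest genes of each member; csf1ra, csf3r, kdm1a, runx1, cbfb, gata1a, atf3, cd4-1, lck and cd3eap were added after values were seen. Sample titles carry the numbers 1 to 3 within a genotype. Deviations of same-numbered fish correlated across genes at 0.136, 0.153 and 0.237, each over the bound of 0.1 set for pairing, so a paired fit was made as an alternative. Other pairings of the fish were not compared, so these correlations cannot show that the numbers mark true pairs. Fish are separate animals.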

Additional observations from a re-analysis of the deposited data

How the results depend on the processing

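No member was called under 15 of 16 alternatives. With library weights in limma 1 was, runx3 (log2 fold change 0.69, adjusted p = 0.0362), where 2447 of 10750 genes passed in all. That fit leaned mostly on single fish. The weight was 4.81 for grna+/+ replicate 3 and 2.94 for grna-/- replicate 1, and 0.327 to 0.668 for the others. The number of genes called, 124, became 44 without a filter on low values, 74 at a mean of at least 5 TPM, 76 without the variance trend, 271 with the replicate block and 16 to 204 when 1 fish was left out. The replicate block changed no call among the 7 factors. Among the list genes followed through the alternatives, it changed those of illr4, adam8a and srgn. Not every list gene was followed in this way. spi1a, spi1b, irf8 and runx3 kept their direction under all 16 alternatives, with log2 fold changes of -1.04 to -0.27, -0.40 to -0.17, 0.25 to 0.56 and 0.21 to 0.69. Leaving out 1 fish reversed others, over ranges of -0.38 to 0.052 for klf4, -0.33 to 0.15 for mafbb and -0.0099 to 0.62 for gfi1ab, and library weights gave 0.13 for klf4. Among ratios the ranges that crossed 0 were -0.13 to 0.81 for spi1b to spi1a, -0.055 to 0.31 for irf8 to gfi1ab, -0.78 to 0.062 for klf4 to gfi1ab and -0.11 to 0.38 for mafbb to spi1b. The summed PU.1 genes stayed between -0.57 and -0.37, a check added after seeing the data. The cause of these shifts was not tested. At a mean of at least 5 TPM klf4 is not tested, so that alternative gave no value for it. Counting error was largest for klf4 (31 to 59 reads a library), and 3 fish a group limit all 7.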

Other observations

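The coefficient of variation of TPM over the fish of a genotype was lower in grna-/- for 6 of the 7, all but spi1b, beside 59.5% of all tested genes. Its median over the 7 was 36.7% in grna+/+ and 15% in grna-/-, and over all tested genes 20.5% and 15.2%. The lowest were 3.29% for spi1a and 3.40% for irf8, both in grna-/-, not far above the mean counting error of 1.78% and 2.61% for these genes. Without grna+/+ replicate 2, a comparison added after seeing the data, it was lower in grna-/- for 5 of the 7 and for 43.2% of all tested genes, with control medians of 26.5% and 13.7%. The control spread then rests on fewer fish than the mutant spread, so 59.5% and 43.2% are not directly comparable. The difference in spread between the genotypes was not tested.

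Several relatives that carry the same domain as a factor were near the limit of measurement. spic, an SPI-family gene, was listed at 0 in all 3 grna+/+ libraries, and 5 reads in all were found in grna-/-. gfi1aa, the paralog of gfi1ab, reached at most 1.17 TPM (19 reads over grna+/+, 38 over grna-/-). runx2a and runx2b stayed at or below 0.140 and 0.696 TPM. gfi1ab and runx3 were well above these paralogs in all 6 libraries. Other relatives were not low. gfi1b averaged 22.4 ± 8.24 and 28.7 ± 7.97 TPM, above the means of gfi1ab in both genotypes. runx1 lay above runx3 in every library. So did mafba, at 81.6 ± 13.3 and 60.7 ± 17.5 TPM, above mafbb.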
